A study of Mus musculus with 10 samples.

Results

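The genes described here are the mouse zinc finger genes whose symbol is Zfp followed by a number. They were followed through 7 days of factor-driven reprogramming of embryonic fibroblasts. Members were chosen by their symbol and by a measured value, the summed read count: they were the protein-coding genes of that name whose RSEM expected counts, the estimated numbers of reads per gene, summed to 300 or more over the 10 libraries, with Zfp42 and Zfp352 left out by name. Of 374 symbols of that form 365 were protein-coding, 178 of these stayed under the sum (Zfp352 among them), and 186 of the 54752 genes in the files were members. Just inside the threshold lay Zfp2 with a sum of 300 and Zfp599 with 304, and just outside it lay Zfp869 with 299.97 and Zfp316 with 291.93.

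The cells were primary mouse embryonic fibroblasts of day 13.5 embryos, used at passage 2. Their fathers carried an Oct4-GFP transgene on a CBA/CaJ and C57BL/6J background, and their mothers were 129S4/SvJaeJ. They were infected for 48 h with retroviruses for Jdp2, Sall4, Esrrb and Glis1 and then kept in a medium named iCD3. Polyadenylated RNA was sequenced after 0, 24, 72, 120 and 168 h in that medium, here D0, D1, D3, D5 and D7, with 2 libraries a day. Every group, D0 included, had therefore received the viruses, and uninfected cells were not analysed here. The series text speaks of independent experiments for the replicates, but nothing ties a library to a culture, so the error behind each p-value may be partly technical.

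Zinc finger proteins of the C2H2 kind bind DNA through repeated fingers, each of which reads a few bases. In many of them the fingers follow a KRAB box, a short domain that recruits the corepressor Trim28 and, through it, the histone methyltransferase Setdb1, and such proteins are known for silencing retroelements and keeping genomic imprints in embryonic cells. KRAB genes lie in clusters that grew by duplication, and the mouse has clusters with no counterpart in human. In the longest translation of each gene in GENCODE M21, 86 of the 186 members held a KRAB box and 100 did not, and the number of C2H2 fingers ran from 0 to 36 with a median of 10. Zfp142 had the most fingers, and 5 members, Zfp36, Zfp330, Zfp365, Zfp503 and Zfp703, had none that matched the C2H2 pattern.

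On chromosome 4 13 members lie in 2 neighbouring clusters of GENCODE M21 on mm10, 6 between 145510759 and 146539395 and 7 between 147132038 and 147809788. All 13 encode KRAB proteins, and 12 of them were called higher at D7 than at D0. Of the 12, Zfp600, Zfp981, Zfp982, Zfp987 and Zfp988 would fall under the sum of 300, scaled to 10 libraries, without their D7 counts, so the count of 12 is a description of genes chosen in part through D7. Their promoters, the bases from 250 before to 50 after the RefSeq start, were near copies of each other. RefSeq tables on GRCm38.p6 gave a promoter within 1000 bases of the GENCODE start for 9 of the 13, and over the 36 pairs of these the aligned bases were 79.0% to 98.8% identical with a median of 90.6%. The sequences of 4 of them are shown because these genes were all higher at D7, and that of Zfp933, the next Zfp gene beyond the clusters, is shown because it was not called. Capitals mark the 2 longest words, simple repeats aside, that stand in all 9 promoters.
Zfp980 (chr4:145670447-145670746, plus strand): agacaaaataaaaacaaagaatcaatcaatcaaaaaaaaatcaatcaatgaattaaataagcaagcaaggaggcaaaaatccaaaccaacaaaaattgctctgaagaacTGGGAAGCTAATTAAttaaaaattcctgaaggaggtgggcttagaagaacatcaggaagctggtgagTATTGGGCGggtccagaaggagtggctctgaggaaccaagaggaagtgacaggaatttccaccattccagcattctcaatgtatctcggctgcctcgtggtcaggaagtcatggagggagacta
Zfp600 (chr4:146156577-146156876, plus strand): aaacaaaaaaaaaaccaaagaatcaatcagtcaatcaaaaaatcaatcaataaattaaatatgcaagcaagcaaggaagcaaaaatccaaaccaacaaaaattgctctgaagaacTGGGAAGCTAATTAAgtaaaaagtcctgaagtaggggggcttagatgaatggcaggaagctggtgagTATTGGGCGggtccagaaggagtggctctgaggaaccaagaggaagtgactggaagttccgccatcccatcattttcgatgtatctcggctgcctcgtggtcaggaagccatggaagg
Zfp982 (chr4:147492167-147492466, plus strand): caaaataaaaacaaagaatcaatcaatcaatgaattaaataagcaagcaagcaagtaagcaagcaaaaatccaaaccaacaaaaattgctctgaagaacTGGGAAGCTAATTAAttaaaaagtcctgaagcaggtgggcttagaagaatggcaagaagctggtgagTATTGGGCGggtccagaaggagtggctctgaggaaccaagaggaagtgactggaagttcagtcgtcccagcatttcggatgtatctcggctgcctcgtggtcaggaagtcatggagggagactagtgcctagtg
Zfp984 (chr4:147809739-147810038, minus strand): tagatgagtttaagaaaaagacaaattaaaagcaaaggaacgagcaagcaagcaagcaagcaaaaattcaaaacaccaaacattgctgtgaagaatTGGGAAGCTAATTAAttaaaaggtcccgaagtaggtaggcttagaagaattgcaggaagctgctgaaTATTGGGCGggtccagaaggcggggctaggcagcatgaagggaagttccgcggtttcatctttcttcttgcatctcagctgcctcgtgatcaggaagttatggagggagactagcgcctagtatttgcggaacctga
Zfp933 (chr4:147848369-147848668, minus strand): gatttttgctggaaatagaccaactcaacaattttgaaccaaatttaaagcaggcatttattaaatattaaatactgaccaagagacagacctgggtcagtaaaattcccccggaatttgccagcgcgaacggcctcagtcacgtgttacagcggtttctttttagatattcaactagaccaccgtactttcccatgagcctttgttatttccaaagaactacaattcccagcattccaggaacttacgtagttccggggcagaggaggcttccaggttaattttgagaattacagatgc

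The longer word, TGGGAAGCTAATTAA, was found on either strand in 11 of the 17405 promoters that passed the same distance limit, or 0.0632%. These were the 9 members, Gm13212 and Rex2, and Gm13212 and Rex2 lie in the same stretch of chromosome 4. The shorter word, TATTGGGCG, was in 26 promoters, or 0.149%, and Zfp933 held neither word. Both words were picked for standing in all 9 promoters, so those 9 hits were set in advance. All 9 belong to members called higher, while Zfp981, Zfp990, Zfp992 and the uncalled Zfp991 had no promoter within the limit. Whether the words go with the rise was not tested. Searched on both strands, the Esrrb element TCAAGGTCA and the AP-1 element TGANTCA, which Jdp2-containing dimers are known to bind, were in 0 of the 9 chromosome 4 promoters, against 0.419% and 6.96% of all promoters. Of the 5 further motifs searched, TGACGTCA, the NRF1 palindrome, AAGATGGCG and CACGTG were also in 0 of the 9, against 2.45%, 6.62%, 2.01% and 8.23% of all promoters. The Sp and Klf box GGGCGG was in 7 of the 9, or 77.8%, against 46.7% of all promoters, and it overlaps the end of the shorter word wherever a G follows that word. A word in a window is a description and not a binding site, and its absence says only that these letters are not in that window. The 9 promoters were poor in CpG, with a median observed to expected ratio of 0.363, against 0.714 in the 127 promoters of the members elsewhere and 0.58 in all 17405.

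The libraries held 2176457 to 4335931 expected counts in replicate 1 and 1329377 to 1492105 in replicate 2, and the 186 genes took 0.556% to 0.914% of a library. All 186 passed the filter on low counts. Levels below are CPM, counts scaled to library size, after TMM scaling, with replicate 1 before replicate 2, and a gene was called where edgeR's quasi-likelihood test gave a Benjamini-Hochberg adjusted p under 0.05 over the 12752 genes tested. Replicate 2 of D5 stood apart from replicate 1 of that day, since the members summed to 5716 CPM in it and to 8723 CPM in replicate 1, and the chi-square per gene between the libraries of a day was highest for D5, at 23. All 14 fibroblast markers were detected, and they summed to 2544 and 3701 CPM at D7 and to 19050 and 22210 CPM at D0. The 8 pluripotent cell markers summed to 1534 and 1200 CPM at D7 and to 6.85 and 14.2 CPM at D0. The 6 endothelial markers summed to 132 and 141 CPM at D7, against 20.6 and 26.2 CPM at D0, and the 6 macrophage markers to 7.73 to 25.4 CPM over the libraries. The 6 muscle markers summed to 6.52 to 70.4 CPM and the 6 keratinocyte markers to 0.979 to 9.69 CPM. The 4 delivered factors, with viral and endogenous reads together, summed to 1740 and 1563 CPM at D7, against 4674 and 5280 CPM at D0. The part of these mixtures in the results below was not tested, and in bulk RNA more cells of a type and more RNA per cell cannot be told apart.

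Zfp600 was at 0 in both D0 libraries and in both D1 libraries, had 0 and 1.49 CPM at D3, 48.1 and 10.1 CPM at D5, and 70.5 and 57.2 CPM at D7. It had reads in both libraries of a day at D5 and D7 only, and the D3 value rests on fewer than 3 counts in replicate 2. Pooled over the 2 libraries of a day it had 411 counts at D7 and 0 at D0, which makes it at least 75.7-fold higher at D7 with a floor of 3 counts over the D0 libraries (edgeR adjusted p = 0.0028). The gene (ENSMUSG00000066007, chromosome 4, 146156824 to 146198755, plus strand) encodes 17 fingers after its KRAB box.

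Zfp980 had 0.489 and 0 CPM at D0, 0.609 and 0 CPM at D1, 3.51 and 0.745 CPM at D3, 93.7 and 13.9 CPM at D5, and 138 and 64.4 CPM at D7. The D7 libraries lay above every library of D0, D1 and D3. Pooled counts gave 734 at D7 and 1 at D0, a ratio of 405 with an exact 95% counting interval of 72.5 to 16000 (edgeR adjusted p = 0.0017). Zfp982 had 0.979 and 0 CPM at D0, 1.83 and 2.85 CPM at D1, 5.27 and 1.49 CPM at D3, 36.5 and 8.51 CPM at D5, and 44.4 and 36.8 CPM at D7. Its pooled counts were 260 at D7 and 2 at D0, a ratio of 71.8 with an interval of 19.7 to 596 (edgeR adjusted p = 0.0023). Both genes were almost silent in the infected fibroblasts and had their 2 highest days at D5 and D7.

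Zfp987, Zfp988 and Zfp981 also had their 2 highest day means at D5 and D7. Zfp987 had 36.1 and 47.3 CPM at D7 and 0 and 1.5 CPM at D0, with pooled counts of 238 and 2 and a ratio of 65.7 (18.0 to 546). Zfp988 had 48.3 and 48.0 CPM at D7 and 0 and 2.25 CPM at D0, with pooled counts of 295 and 3 and a ratio of 54.3 (18.4 to 265). Zfp981 had 43.3 and 20.4 CPM at D7 and 1.47 and 0 CPM at D0, with pooled counts of 230 and 3 and a ratio of 42.3 (14.3 to 207). The edgeR adjusted p of the 3 genes lay between 0.0037 and 0.0046. The counting intervals cover counting error only.

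Zfp985 averaged 52.6 ± 18.6 CPM at D7 and 1.86 ± 0.55 CPM at D0 (SD, n = 2 each), a log2 fold change of 4.85 ± 0.79 (SE; edgeR adjusted p = 0.0022). Zfp534 averaged 48.9 ± 8.71 CPM at D7 and 1.86 ± 0.55 CPM at D0 (SD, n = 2 each), a log2 fold change of 4.74 ± 0.64 (SE; edgeR adjusted p = 0.00084). Zfp990 started higher, at 11.7 and 8.23 CPM at D0, and had 16.7 and 10.7 CPM at D1, 33.6 and 21.6 CPM at D3, 191 and 59.5 CPM at D5, and 175 and 121 CPM at D7. It was the most abundant of the 13 per length, at a mean of 33.3 TPM over the 10 libraries, and its log2 fold change at D7 over D0 was 3.86 ± 0.57 (SE; edgeR adjusted p = 0.0014).

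Zfp979, Zfp984 and Zfp992 were already expressed in the infected fibroblasts. Zfp979 had 103 and 54.5 CPM at D7 against 16.1 and 6.74 CPM at D0 (log2 fold change 2.75 ± 0.71, edgeR adjusted p = 0.022). Zfp984 had 68.3 and 51.9 CPM at D7 against 17.6 and 7.48 CPM at D0 (log2 fold change 2.22 ± 0.68, edgeR adjusted p = 0.045). Zfp992 had 77.7 and 42.05 CPM at D7 against 24.5 and 19.5 CPM at D0 (log2 fold change 1.45 ± 0.38, edgeR adjusted p = 0.023). In each of the 3 both D7 libraries lay above both D0 libraries, but the calls did not hold without either D0 library or without replicate 1 of D7, where the adjusted p reached up to 0.156 for Zfp979, 0.238 for Zfp984 and 0.245 for Zfp992. The call of Zfp984 was lost without replicate 2 of D7 as well (edgeR adjusted p = 0.0745), by limma-voom (adjusted p = 0.0524), on the log2(TPM + 1) scale (limma adjusted p = 0.0852) and with thinning to equal depth (edgeR adjusted p = 0.0629). That of Zfp992 was lost on the log2(TPM + 1) scale (limma adjusted p = 0.0963).

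Zfp991 was the exception among the 13. It had 41.5 and 17.7 CPM at D7 and 20.1 and 16.5 CPM at D0, its D5 libraries differed at 34.8 and 6.19 CPM, and it was not called (log2 fold change 0.73 ± 0.72, SE; edgeR adjusted p = 0.54). By deposited TPM its D5 libraries were close, at 42.4 and 41.8, against 30.1 and 9.51 at D7 and 10.8 and 8.72 at D0. Set against each gene's own D7 mean, the 13 stood at a median of 3.53% at D0, 2.70% at D1, 8.32% at D3 and 67.9% at D5, with Zfp991 highest at D0 at 61.6%. In sum the 13 genes had 95.9 and 66.6 CPM at D0, 108 and 66.9 CPM at D1, 180 and 110 CPM at D3, 851 and 257 CPM at D5, and 967 and 643 CPM at D7. The D7 sum was 10.1 times the D0 sum in replicate 1 and 9.66 times in replicate 2. At D5 the replicates differed, at 8.87 times and 3.85 times their own D0 sum.

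**Figure D1:**
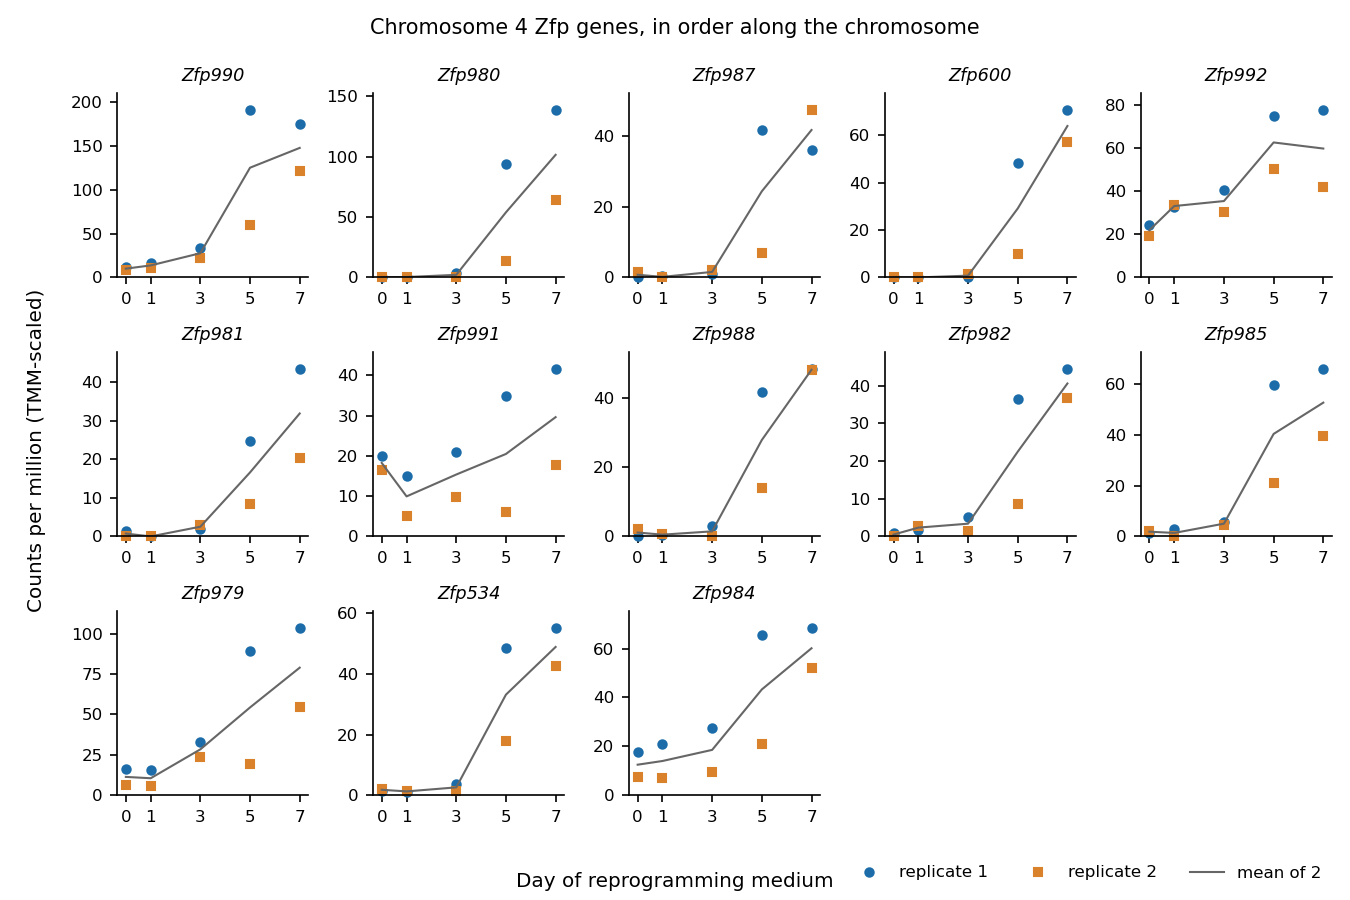
Levels of the 13 chromosome 4 Zfp genes in CPM on the y axis against day in medium on the x axis, with a point for each library and a line through the mean of the 2 libraries of a day. In every panel the D7 mean lay above the D0 mean, replicate 2 lay under replicate 1 at D5, and Zfp600 was at 0 in both libraries of D0 and D1.

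RSEM divides reads that match several genes by estimation, and these genes are alike in sequence as well. Of the 50-base words in the transcripts of a member, a median of 54.5% over the 13 also stood in a transcript of another gene, against a median of 0.12% over the other 173 members. The share was lowest for Zfp982 at 11.9% and Zfp985 at 15.9% and highest for Zfp987 at 89.0%, Zfp991 at 82.2% and Zfp600 at 81.2%. The division of reads is therefore uncertain for each gene named above. How much of the sharing lies among the 13 and how much with other genes of the stretch was not measured, so their sum may depend on it too. Zfp982 and Zfp985, with the smallest shared parts, were called, and of those with the largest Zfp987 and Zfp600 were called and Zfp991 was not. The part of shared reads in these calls was not tested.

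Other genes of the same stretch were read beside them. From the start of Zfp990 to the end of Zfp984 the tested genes that were no members numbered 10, of which 5 were called higher at D7 and 0 lower. Of all tested genes 9.15% were called higher and 8.71% lower. Rex2 had 140 and 63.1 CPM at D7 and 0 and 1.5 CPM at D0, and Gm13212 had 53.3 and 55.2 CPM at D7 and 3.43 and 5.24 CPM at D0. Both carried the longer promoter word. The other 3 were Zfp978, Zfp986 and Zfp989, which stayed under the sum of 300 and had no count at D0, and pooled counts put them at least 32.2-fold, 10.5-fold and 11.6-fold higher at D7. In the flanks of 500000 bases on either side 1 of 17 tested genes was called higher, Gm13230, and 2 were called lower, Tnfrsf1b and Mfn2. Gm13230, just before Zfp990, had 46.8 and 26.9 CPM at D7 and 0.489 and 0.748 CPM at D0. RSEM gave fractional counts to Gm13212 in 10 libraries and to Rex2 and Gm13230 in 6 each, so reads of these neighbours were divided by estimation too. Whether their rises and those of the members rest on the same reads was not tested. Zfp933 had 11.96 and 3.29 CPM at D7 and 10.8 and 3.74 CPM at D0 and was not called (edgeR adjusted p = 0.945).

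**Figure D2:**
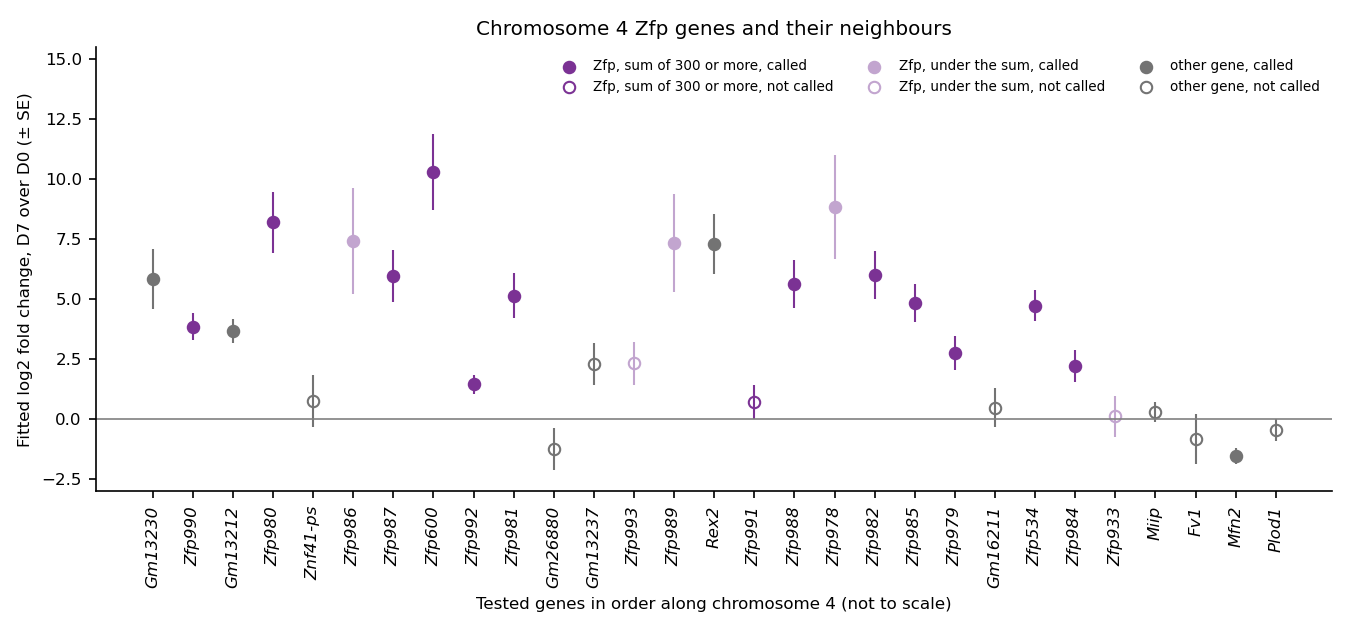
Fitted log2 fold change of D7 over D0 with its SE on the y axis. The x axis holds the tested genes of the stretch and some genes of its flanks, in order along chromosome 4. Filled points were called. Where D0 counts were 0 to 3 the fitted value depends on the prior count and is no measure of the fold. The last called rise along the chromosome is Zfp984, beyond which Zfp933, Miip, Fv1 and Plod1 were not called and Mfn2 was lower. On the other side, Gm13230 in the flank before Zfp990 was called higher.

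Over all members, 21 of 186 (11.3%) were called between D7 and D0, 19 higher and 2 lower, while of all 12752 tested genes 17.9% were called, 9.15% higher and 8.71% lower. The share of members called was thus under the background, and 12 of the 19 rises were the chromosome 4 genes. Outside these clusters 9 of 173 members were called, 7 higher and 2 lower. The median log2 fold change was 0.22 over the members and 0.06 over all genes. Without replicate 2 of D0 these medians were 0.148 and 0.134, without replicate 1 of D0 0.377 and 0.151, without replicate 1 of D7 0.133 and 0.004, and without replicate 2 of D7 0.340 and 0.140, so the size of the difference rests on single libraries. Both D7 libraries lay above both D0 libraries in 65 members (34.9%, against 34.0% of all tested genes), and below them in 37 (19.9%, against 30.4%).

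The sum that chose the members holds D7 counts, so a gene that is high at D7 alone could pass through D7 alone. With D7 left out and the sum scaled to 10 libraries, 18 members would have fallen under 300, and 7 of these were called higher at D7 (Zfp59, Zfp296, Zfp600, Zfp981, Zfp982, Zfp987 and Zfp988). With D0 left out none would have fallen under it. The counts of rises and falls among members are for that reason a description. The alternative fits below did not choose the members anew, so calls that recurred over them carry the same limit. Among the genes called in every alternative, Zfp296, Zfp600, Zfp981, Zfp982, Zfp987 and Zfp988 are of this kind. Zfp534, Zfp980 and Zfp985, also called in every alternative, held 95.5%, 98.6% and 94.0% of their counts in D5 and D7. They too were chosen in large part through late days, so their calls carry this limit. Leaving out D5 and D7 together was not tried.

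Libraries of the same replicate number deviated together, though what the number stands for is not known. With it as a block 40 members were called between D7 and D0, 29 higher and 11 lower. Of all genes the block called 28.5%, 14.8% higher and 13.7% lower. All 21 members called without the block were among the 40. The further 10 rises were Zfp7, Zfp57, Zfp141, Zfp229, Zfp395, Zfp598, Zfp740, Zfp958, Zfp961 and Zfp976, and the further 9 falls were Zfp37, Zfp637, Zfp672, Zfp68, Zfp697, Zfp703, Zfp768, Zfp777 and Zfp827. Leaving out a library moved the count of 21 to 11 without replicate 1 of D0, 11 without replicate 2 of D0, 11 without replicate 1 of D7, 32 without replicate 1 of D5 and 33 without replicate 2 of D5. Zfp296, Zfp534, Zfp600, Zfp980, Zfp981, Zfp982, Zfp985, Zfp987, Zfp988 and Zfp990 were called in each of the 19 alternatives run.

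Split by domain, 14 of the 86 KRAB members (16.3%) were called higher at D7 and 0 lower, with a median log2 fold change of 0.34. Of all tested genes 9.15% were higher and 8.71% lower. Among the 14, Zfp59, Zfp600, Zfp981, Zfp982, Zfp987 and Zfp988 would fall under the threshold without their D7 counts, with the sum scaled as above. The share of 16.3%, like the block's KRAB calls below, thus describes genes chosen in part through D7. It is no result about KRAB genes against the background. Of the 100 members without a KRAB box 5 were called higher and 2 lower, with a median of 0.10. With the replicate block the calls were 21 higher and 3 lower among the KRAB members and 8 higher and 8 lower among the others, against 14.8% higher and 13.7% lower of all genes. Without the chromosome 4 clusters the 73 remaining KRAB members held 2 called rises (2.74%), Zfp934 and Zfp59, and had a median of 0.22. The block called 9 of these 73 higher and 3 lower. Their summed level was 1839 and 1418 CPM at D0, 1854 and 1241 CPM at D1, 1608 and 1363 CPM at D3, 2365 and 1086 CPM at D5, and 2224 and 1670 CPM at D7. Within each replicate number the D7 sum was above the D0 sum, but at D5 replicate 1 was above its D0 sum and replicate 2 below it. The members without a KRAB box summed to 5271 and 5770 CPM at D7 and to 4836 and 5129 CPM at D0.

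**Figure D3:**
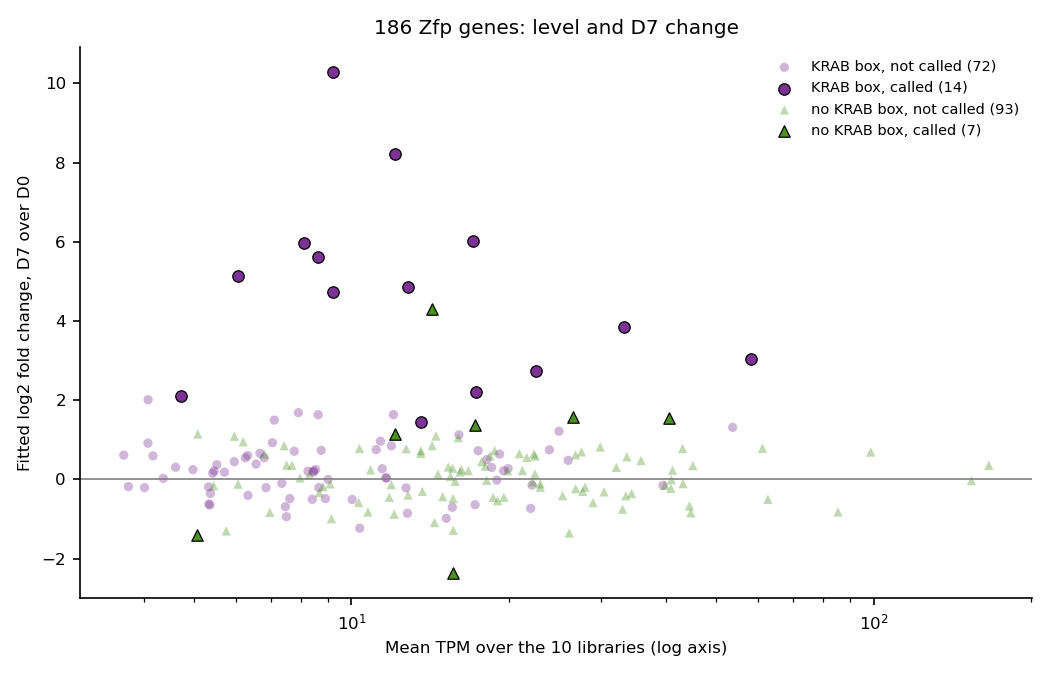
Mean TPM over the 10 libraries on a log axis against the fitted log2 fold change of D7 over D0 for the 186 members, with KRAB genes as circles, other genes as triangles and called genes outlined. The called KRAB genes all lie above 0, and the 2 called falls are genes without a KRAB box. Fitted values of genes with 0 to 3 pooled D0 counts depend on the prior count.

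**Figure D4:**
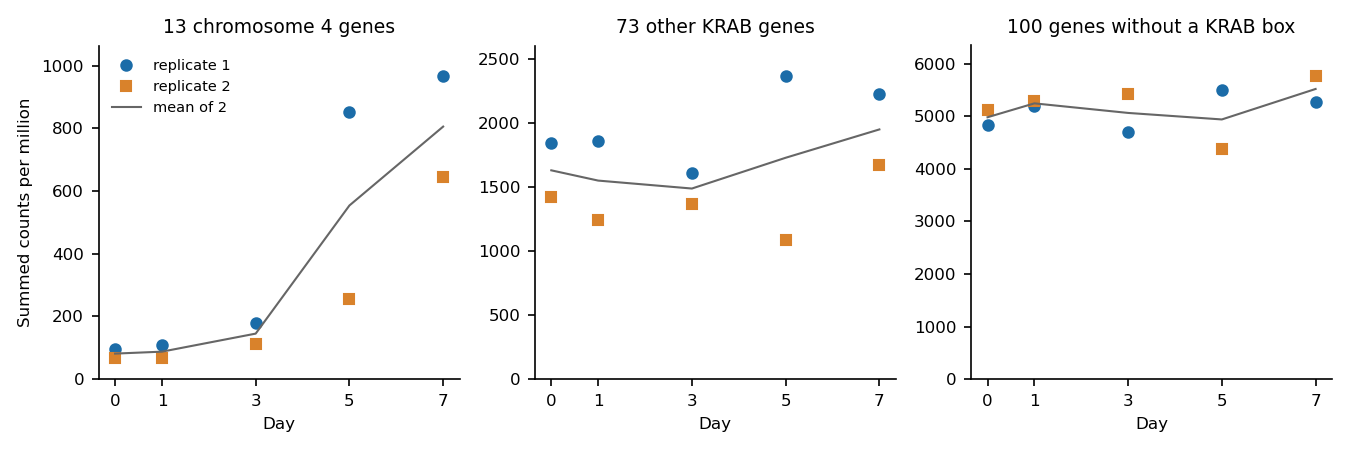
Summed CPM against day in medium for the 13 chromosome 4 genes, the other 73 KRAB genes and the 100 genes without a KRAB box, with a point per library and a line through the mean of a day. The first panel shows 967 and 643 CPM at D7 against 95.9 and 66.6 CPM at D0. In the first and second panels the libraries of D5 stand far apart. The third holds 5508 and 4373 CPM at D5, beside 4694 and 5433 CPM at D3.

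None of the 6 most abundant members per length was called between D7 and D0. Zfp706 averaged 166 TPM over the 10 libraries, Zfp207, a spindle and kinetochore protein, 154 TPM, and Zfp106, an RNA-binding protein, 98.7 TPM. Zfp703, a corepressor, averaged 85.4 TPM, Zfp362 62.7 TPM and Zfp428 61.2 TPM. Over all members the mean TPM ran from 3.66 to 166 with a median of 13.6, against 19.3 over all tested genes. Their fitted log2 fold changes ran between -0.82 for Zfp703 and 0.79 for Zfp428. Zfp703 was called lower with the replicate block (log2 fold change -0.85, edgeR adjusted p = 0.029), at 69.2 and 112 CPM at D7 against 134 and 183 CPM at D0.

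Of the 10 Zfp genes listed as pluripotency and early embryo factors, 9 were members and 3 of these rose by D7, Zfp296, Zfp219 and Zfp143, with 0 lower, beside 9.15% of all genes higher and 8.71% lower. Zfp296 would fall under the scaled sum without its D7 counts, and the list was chosen with earlier results of these data known. The 3 calls in so short a list are thus no result about its genes. Zfp296, which helps mouse cells to reprogramme, had 0.979 and 2.25 CPM at D0, 1.22 and 0.712 CPM at D1, 4.39 and 2.23 CPM at D3, 43.7 and 19.3 CPM at D5, and 39.4 and 21.7 CPM at D7. The D5 and D7 libraries lay above all others. The log2 fold change of D7 over D0 was 4.31 ± 0.69 (SE; edgeR adjusted p = 0.0020), and the gene lies on chromosome 7 at 19577287 to 19580656 and shared 0% of its transcript words with other genes.

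Zfp219, known as a partner of Sox9 in cartilage, had 27.9 and 42.7 CPM at D0, 34.1 and 49.8 CPM at D1, 61.2 and 63.3 CPM at D3, 79.7 and 97.4 CPM at D5, and 68.3 and 139 CPM at D7. Its day means went up at each step, and D7 over D0 was 1.55 ± 0.39 on the log2 scale (SE; edgeR adjusted p = 0.020). Zfp143, an activator that binds many promoters and is needed by mouse embryonic stem cells, had 62.0 and 46.6 CPM at D7 against 21.5 and 20.2 CPM at D0 (log2 fold change 1.38 ± 0.41, SE; edgeR adjusted p = 0.039). The D0 libraries of Zfp143 agreed closely and both D7 libraries were above them. Both calls were lost without either D0 library and without replicate 2 of D7, with adjusted p of up to 0.154 for Zfp219 and 0.177 for Zfp143. That of Zfp143 was also lost without replicate 1 of D7 (edgeR adjusted p = 0.222) and without replicate 2 of D3 (edgeR adjusted p = 0.0546). On the log2(TPM + 1) scale limma gave adjusted p of 0.0619 for Zfp219 and 0.27 for Zfp143.

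Zfp57, the KRAB protein that keeps imprints methylated, stood in this list and in that of imprint and retroelement repressors. It had 42.1 and 32.2 CPM at D0, 31.0 and 16.4 CPM at D1, 49.8 and 29.8 CPM at D3, 114 and 88.9 CPM at D5, and 120 and 63.7 CPM at D7. The D5 and D7 libraries lay above those of the first 3 days. It was called over all days (edgeR adjusted p = 0.016) but not between D7 and D0 (log2 fold change 1.31 ± 0.42, SE; edgeR adjusted p = 0.054), and the replicate block called that difference (edgeR adjusted p = 0.0028). The list's other members, Zfp281, Zfp217, Zfp462, Zfp207 and Zfp706, had log2 fold changes between -0.20 and 0.85 and were not called, and Zfp459 stayed under the sum with 90 pooled counts at D7 and 0 at D0.

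Of the 8 listed imprint and retroelement repressors 5 were members, and none was called between D7 and D0, with 1 called higher with the block, Zfp57. Of all tested genes 17.9% were called without the block and 28.5% with it, so these counts in a short list are no result about its genes. Zfp445, a second imprint-keeping KRAB protein, had 99.6 and 78.2 CPM at D7 and 117 and 80.1 CPM at D0. Zfp809, which binds the primer site of mouse leukaemia viruses in embryonic stem cells, had 31.8 and 22.4 CPM at D0, 36.5 and 25.6 CPM at D1, 17.0 and 20.9 CPM at D3, 23.2 and 6.19 CPM at D5, and 39.4 and 36.8 CPM at D7 (log2 fold change of D7 over D0 0.48 ± 0.47, SE; edgeR adjusted p = 0.54). The groups of D7 and D0 did not overlap for Zfp809, yet the difference was about its error. Zfp568, a repressor of a placental Igf2 transcript, had 128 and 116 CPM at D7 and 86.6 and 58.4 CPM at D0 (edgeR adjusted p = 0.25).

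The proteins that KRAB boxes work through were read from a list of 25 genes that are no members. None of the 25 was called between D7 and D0, 6 had an unadjusted p under 0.05, and the block called 7 higher and 1 lower, beside 17.9% of all genes called without the block and 28.5% with it. Trim28, the KRAB corepressor, had 864 and 867 CPM at D7 and 401 and 532 CPM at D0 (log2 fold change 0.89, edgeR adjusted p = 0.052). The D7 libraries were close to each other and above both D0 libraries. Over all days 3 of the 25 were called, Trim28, Uhrf1 and Chd3, beside 19.1% of all tested genes. The 3 calls are thus no result about the list. Setdb1 averaged 109 ± 23.9 CPM at D7 and 76.7 ± 14.3 CPM at D0 (SD, n = 2 each; edgeR adjusted p = 0.35). The list's median log2 fold change was 0.31, against 0.06 over all genes.

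Of the 8 listed mesenchymal, fat and bone regulators 6 were members, and none was called between D7 and D0. Beside 17.9% of all tested genes called, that is no result about so short a list. Zfp423, which commits cells to the fat lineage, had 26.4 and 32.2 CPM at D0, 70.9 and 110 CPM at D1, 87.5 and 160 CPM at D3, 60.9 and 109 CPM at D5, and 37.0 and 53.9 CPM at D7. It was highest at D3 in both replicates and was called over all days (edgeR adjusted p = 0.025). Its D1 level was called above D0 with the block (log2 fold change 1.58, edgeR adjusted p = 0.0015) and by DESeq2, and not without the block (edgeR adjusted p = 0.060). Zfp521, its paralogue, had 28.3 and 36.8 CPM at D7 and 37.2 and 35.9 CPM at D0, and Zfp516, a brown fat factor, had 106 and 146 CPM at D7 and 66.0 and 86.1 CPM at D0 (edgeR adjusted p = 0.17).

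All 10 listed RNA and ribosome factors were members. Between D7 and D0 1 of them was called lower and 0 higher, beside 8.71% of all tested genes lower and 9.15% higher. Zfp36, the tristetraprolin gene, whose CCCH fingers bind AU-rich messages and speed their decay, had 49.4 and 72.6 CPM at D0, 20.4 and 35.6 CPM at D1, 16.7 and 35.8 CPM at D3, 7.49 and 12.4 CPM at D5, and 8.70 and 15.8 CPM at D7. Both libraries of each later day lay below both D0 libraries. The log2 fold change of D7 over D0 was -2.37 ± 0.50 (SE; edgeR adjusted p = 0.0084), and without replicate 2 of D0 or replicate 1 of D7 the adjusted p was up to 0.103. The block also called Zfp36 lower between D1 and D0 (log2 fold change -1.16, edgeR adjusted p = 0.016) and between D5 and D3 (log2 fold change -1.33, edgeR adjusted p = 0.035). Zfp598, a ubiquitin ligase of stalled ribosomes, had 87.9 and 124 CPM at D7 and 63.6 and 59.1 CPM at D0 and was called higher with the block alone (edgeR adjusted p = 0.032, and 0.081 without it).

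Of the 10 listed chromatin and genome maintenance factors 9 were members and none was called between D7 and D0, beside 17.9% of all tested genes. Their log2 fold changes lay between -0.99 and 0.78. Zfp827 had 17.8 and 34.8 CPM at D7 and 46.0 and 56.1 CPM at D0 and was called lower with the block (edgeR adjusted p = 0.020, and 0.099 without it). Zfp148, a factor of GC-rich promoters, had 91.8 and 82.8 CPM at D7 and 117 and 100 CPM at D0 (edgeR adjusted p = 0.58).

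Outside the chromosome 4 clusters, the members called between D7 and D0 that stood in no list were Zfp934, Zfp59, Zfp710, Zfp652 and Zfp618. Zfp934, a KRAB gene on chromosome 13, had 9.79 and 11.2 CPM at D0, 17.4 and 4.27 CPM at D1, 33.1 and 19.4 CPM at D3, 56.5 and 30.9 CPM at D5, and 115 and 57.2 CPM at D7. From D1 on its day means went up at each step, and D7 over D0 was 3.05 ± 0.60 on the log2 scale (SE; edgeR adjusted p = 0.0059), with 29.5% of its words shared with other genes. Zfp59, a KRAB gene on chromosome 7, had 27.8 and 11.2 CPM at D7 and 5.87 and 2.99 CPM at D0 (log2 fold change 2.12 ± 0.65, SE; edgeR adjusted p = 0.045), and shared 52.4% of its words. Zfp934 lost its call without replicate 1 of D0 or of D7, with an adjusted p of up to 0.066, and Zfp59 lost its call without either library of D0, D1 or D3 or without replicate 1 of D7, with an adjusted p of up to 0.394. Zfp59 was also not called by limma-voom (adjusted p = 0.0736), on the log2(TPM + 1) scale (limma adjusted p = 0.105) or with the stricter filter (edgeR adjusted p = 0.0511).

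Zfp710 had 24.5 and 37.4 CPM at D0, 59.3 and 91.1 CPM at D1, 89.0 and 151 CPM at D3, 84.3 and 130 CPM at D5, and 77.9 and 106 CPM at D7. It was thus up from D1 on, with its highest mean at D3, and replicate 2 was above replicate 1 on each day. The log2 fold change of D7 over D0 was 1.57 ± 0.40 (SE; edgeR adjusted p = 0.021), and D1 over D0 was called with the block (log2 fold change 1.28, edgeR adjusted p = 0.0039). Zfp652 had 62.9 and 84.8 CPM at D7 and 32.3 and 33.7 CPM at D0 (log2 fold change 1.15 ± 0.35, SE; edgeR adjusted p = 0.043). Zfp618 had 9.57 and 14.5 CPM at D7 and 30.3 and 31.4 CPM at D0 (log2 fold change -1.40 ± 0.43, SE; edgeR adjusted p = 0.045), but its deposited TPM was 16.5 and 3.48 at D7 and 6.06 and 6.80 at D0. On the log2(TPM + 1) scale the sign of the Zfp618 change turned, and each of these 3 calls was lost without either D0 library or either D7 library, with adjusted p of up to 0.153 for Zfp710, 0.189 for Zfp652 and 0.298 for Zfp618. The calls of Zfp652 and Zfp618 were also lost without either D1 library, with adjusted p of up to 0.0569 and 0.0685. Zfp652 was not called by the TPM fit (adjusted p = 0.337, limma) or with thinning to equal depth (edgeR adjusted p = 0.0601). Zfp618 was not called with upper-quartile scaling, DESeq2, no filter, the stricter filter or thinning either, with adjusted p of 0.0502 to 0.097.

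**Figure D5:**
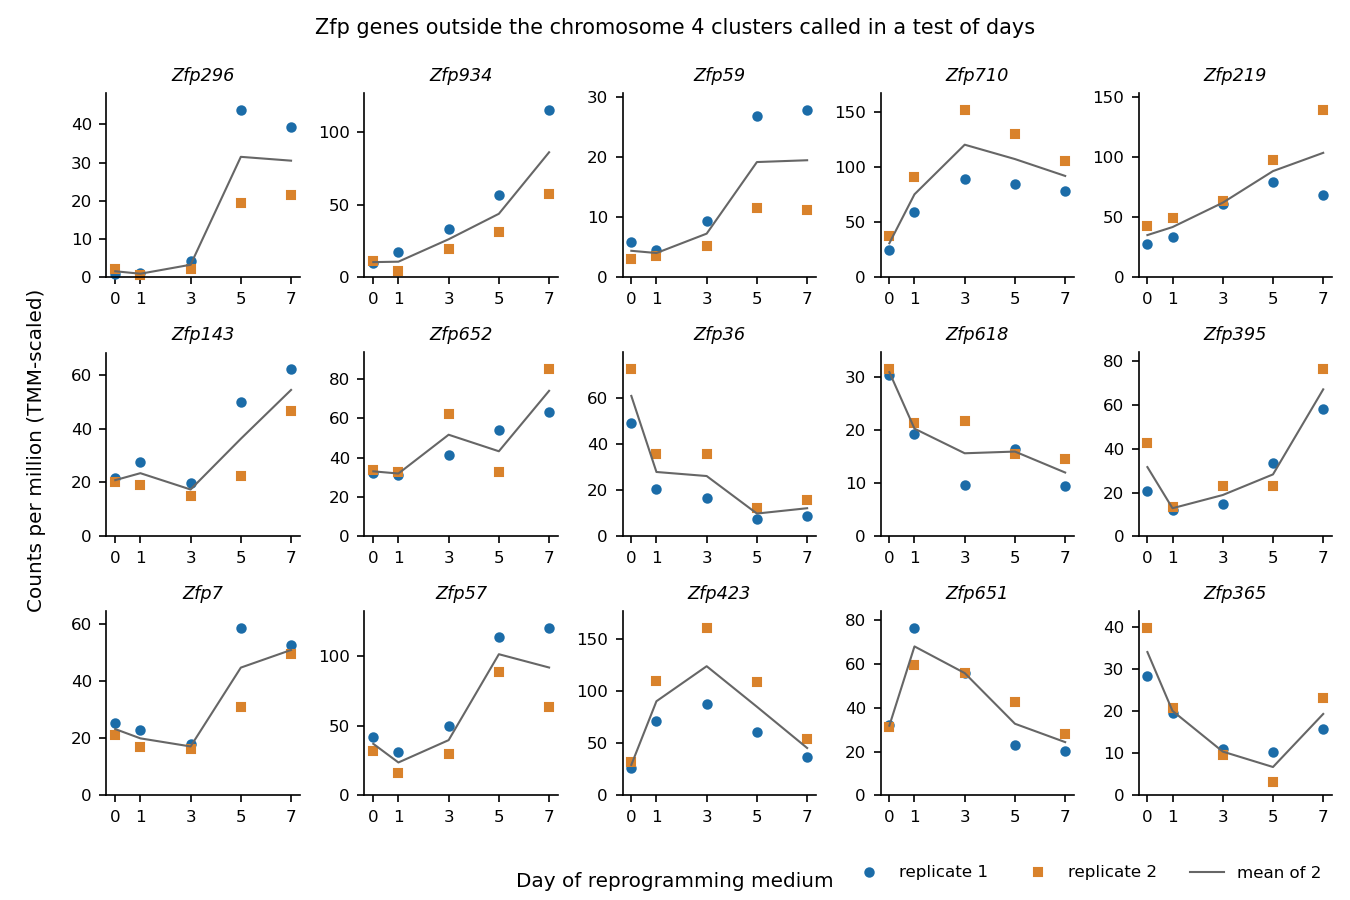
CPM on the y axis against day in medium on the x axis for 15 members outside the chromosome 4 clusters that were called in a test of days, with a point per library and a line through the mean of 2. Zfp296 stayed under 5 CPM up to D3, Zfp36 was highest at D0, and Zfp423 had its highest mean at D3.

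Over all 5 days 24 of the 186 members (12.9%) were called, against 19.1% of all genes, and 46 with the block, against 34.9%. Of the 24, the highest mean fell on D7 in 16, on D5 in 3, on D3 in 2, on D1 in 1 and on D0 in 2. Zfp59, Zfp296, Zfp600, Zfp981, Zfp982, Zfp987 and Zfp988, among the 24, would fall under the scaled sum without their D7 counts. The spread over days is therefore a description. Zfp57, Zfp365, Zfp423 and Zfp651 were called over all days and in neither D7 comparison. Zfp651 was highest at D1, at 76.4 and 59.8 CPM against 32.3 and 31.4 CPM at D0. Zfp365 was highest at D0, at 28.4 and 39.7 CPM, and lowest at D5, at 10.4 and 3.09 CPM. The count of 24 was 14 without replicate 1 of D0, 13 without replicate 2 of D0, 14 without replicate 2 of D3, 14 without replicate 1 of D7 and 43 without replicate 1 of D5.

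Between D7 and D3, 13 of the 186 members (6.99%) were called, all higher, against 5.37% of all genes, 3.07% higher and 2.31% lower. These comparisons share the D7 libraries with the one above. Among the 13, Zfp296, Zfp600, Zfp981, Zfp982, Zfp987 and Zfp988 would fall under the scaled sum without their D7 counts. The share of 6.99% thus describes genes chosen in part through D7. Of the 13, 9 were chromosome 4 genes, and the others were Zfp296, Zfp143, Zfp395 and Zfp7. Zfp395 had 57.9 and 76.2 CPM at D7 and 14.6 and 23.1 CPM at D3 (log2 fold change 1.86, edgeR adjusted p = 0.032), and Zfp7 had 52.4 and 49.3 CPM at D7 and 17.9 and 16.4 CPM at D3 (log2 fold change 1.56, edgeR adjusted p = 0.036). Zfp395 was lower at D1, at 12.2 and 13.5 CPM, than at D0, at 20.6 and 42.7 CPM. The block called 30 members, 24 higher and 6 lower, against 18.4% of all genes, 9.5% higher and 8.93% lower, while without either D3 library or replicate 1 of D7 edgeR called 0 of the 186, and without replicate 2 of D7 it called 5.

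No member was called by edgeR between neighbouring days, where few genes were called at all. Between D1 and D0 4.52% of all genes were called, 2.41% higher and 2.12% lower, and 0 members, with 7 members at an unadjusted p under 0.05, 1 called by DESeq2 (Zfp423), 0 by limma-voom and 7 with the block, against 10.6% of all genes, 5.27% higher and 5.32% lower. The 7 were Zfp362, Zfp423, Zfp598, Zfp651, Zfp710 and Zfp976, which were higher at D1, and Zfp36, which was lower. Between D3 and D1 0.0549% of all genes were called by edgeR and 0 members, with 4 members at an unadjusted p under 0.05 and 0 called by DESeq2, limma-voom or the block.

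Between D5 and D3 0.0706% of all genes were called, 0.0627% higher and 0.00784% lower, and 0 members, with 19 members at an unadjusted p under 0.05. DESeq2 called 7 members in that step, limma-voom 0, and the block 13, against 3.3% of all genes, 2.26% higher and 1.04% lower. The block's 12 rises were Zfp7, Zfp57, Zfp296 and 9 chromosome 4 genes (Zfp534, Zfp600, Zfp980, Zfp981, Zfp982, Zfp985, Zfp987, Zfp988 and Zfp990), and its 1 fall was Zfp36. Zfp296 and these chromosome 4 genes other than Zfp990 held over 90% of their counts in D5 and D7. The block's count thus describes genes chosen in part through late days. Between D7 and D5 edgeR, DESeq2, limma-voom and the block called 0 members and edgeR called 0.0% of all genes, with 5 members at an unadjusted p under 0.05 in edgeR.

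Members of the other clusters were read beside all tested genes, of which 17.9% were called between D7 and D0, 9.15% higher and 8.71% lower. Each cluster holds few members, so few calls are no result about a cluster. Of the 186 members 44 lay in 8 clusters of 4 or more, 31 of them outside chromosome 4, and of these 31 Zfp59 was called higher at D7 and Zfp36 lower, in the same cluster on chromosome 7. In the cluster of 5 KRAB genes on chromosome 17 Zfp229 had 37.2 and 21.7 CPM at D7 and 11.2 and 9.73 CPM at D0 and was called with the block alone (edgeR adjusted p = 0.029), and Zfp948 had 23.9 and 20.4 CPM at D7 and 44.5 and 35.9 CPM at D0 (edgeR adjusted p = 0.32). In the 5 KRAB genes on chromosome 6 each fitted change was below 0, between -0.73 for Zfp777 and -0.0004 for Zfp212, and Zfp777 was called lower with the block alone. Zfp746 of that cluster had 21.5 and 32.2 CPM at D7 and 39.1 and 47.1 CPM at D0.

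The 3 remaining clusters held 17 members and no call between D7 and D0, beside 17.9% of all tested genes called. In the second cluster on chromosome 7 Zfp146 had 44.6 and 59.8 CPM at D7 and 98.8 and 65.1 CPM at D0, and Zfp568 was given above. In the third, whose 6 members carry no KRAB box, Zfp768 had 10.7 and 22.3 CPM at D7 and 28.4 and 49.4 CPM at D0 (edgeR adjusted p = 0.16, and 0.028 with the block), and Zfp771 had 19.6 and 34.8 CPM at D7 and 33.3 and 62.9 CPM at D0. In the cluster of 4 KRAB genes on chromosome 9 the fitted log2 fold changes lay between -0.21 for Zfp426 and 0.39 for Zfp846.

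Related zinc finger families were set beside the members with the same sum of counts. Of 27 Zbtb genes, which pair fingers with a BTB domain, 1 was called higher and 2 lower at D7 (11.1%, against 17.9% of all genes), with a median log2 fold change of 0.07. Of 9 Zscan and Zkscan genes 1 was called higher and 0 lower (11.1%), with a median of -0.01. Whether these families differ from the members was not tested.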

How the data were processed

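The deposited files give expected counts and TPM per gene for each library, per the file headers, and reads were processed with bcl2fastq, Bowtie2 and RSEM on mm10, per the submitters' processing notes, which name no versions. Which of the 2 library kits and 2 sequencing kits in the labels served which library is not given there. RSEM's expected counts from the authors divide reads that match several genes by estimation. Here they were rounded and tested with edgeR 4.0.16 in R 4.3.3 (filterByExpr with a minimum count of 10, TMM scaling, 1 term per day, quasi-likelihood F test), on all 10 libraries and 12752 genes, with Benjamini-Hochberg adjustment over all of them. The script was tested on simulated data. Depth ran from 1329377 to 4335931 expected counts, so 3 counts stand for 0.692 to 2.26 CPM in a library.

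Libraries of the same replicate number deviated together: over the 10 pairs of days the correlation of their deviations from the day means was 0.273 to 0.436, so the replicate number was also fitted as a block. Alternatives were RLE and upper-quartile scaling, DESeq2 1.42.0, limma-voom (limma 3.58.1), limma on log2 of the deposited TPM + 1, no filter, a minimum count of 30, thinning to 1329378 counts, and leaving out each library.

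Gene names, places and translations came from GENCODE M21 (longest translation of a gene), the KRAB box was found by a profile search, and clusters are members within 500000 bases of the next. Promoters came from RefSeq tables on GRCm38.p6. The members and gene lists were chosen with earlier results of these data known. Genes named are the 12 largest called rises and falls between D7 and D0, the 4 largest in other comparisons, the 6 of highest mean TPM, 2 to 4 per list, 2 per cluster and those nearest the threshold. Other genes named, such as Zfp652, Zfp984, Zfp992, Zfp57 and the chromosome 4 neighbours, were chosen after their values were seen. The result of 1 marker list is not reported here.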

Additional observations from a re-analysis of the deposited data

How the results depend on the processing

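Of the 21 members called between D7 and D0, each kept its direction in the 19 alternatives, except Zfp618, whose change was 0.25 by limma on log2(TPM + 1) (adjusted p = 0.84). Over RLE and upper-quartile scaling, DESeq2, limma-voom, that TPM fit, no filter, the stricter filter and thinning, the count of 21 ran from 15 to 28. Upper-quartile scaling moved the median log2 change of all genes to 0.186, against 0.06 with TMM, and that of the members to 0.349. The replicate block, which pairs libraries by replicate number, gave 40 calls between D7 and D0 (29 higher, 11 lower) and ended none of the 21. It gave 30 calls between D7 and D3, 46 over all days, 7 between D1 and D0 and 13 between D5 and D3. By DESeq2 there was 1 call between D1 and D0 and 7 between D5 and D3, with no filter 4 and 11, 1 between D3 and D1 and 24 between D7 and D3, and with thinning 1 between D1 and D0. Calls lower at D7 than at D0 were 1 with upper-quartile scaling, DESeq2, no filter, the stricter filter or thinning and 4 by limma-voom, and the TPM fit called 13 members over all days. Leaving out each library gave 11 to 33 calls between D7 and D0 (10 to 28 higher, 0 to 7 lower), 0 to 20 between D7 and D3, 13 to 43 over all days, 0 to 2 between D1 and D0, 0 to 10 between D5 and D3 and 0 to 2 between D7 and D5, where the lone library of a day is assumed to vary like the others. The 10 calls between D5 and D3 came without replicate 2 of D5, and the 2 between D7 and D5 without replicate 1 of D5. With a sum of 1000 or more as the threshold 8 members were called between D7 and D0 and 9 over all days. Outside the chromosome 4 clusters, a choice made after seeing the data, 9 were called between D7 and D0, 13 over all days and 4 between D7 and D3. The cause of these differences was not tested. A count of 0 in a library allows up to 3 counts, and ratios over 1 to 3 counts have the wide intervals given with them.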

Other observations

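Zfp genes under the sum of 300 held 122 tested genes, of which 6 were called higher at D7 than at D0 and 1 lower (5.74%, against 17.9% of all tested genes), with a median log2 fold change of 0.37. Zfp459, listed with the pluripotency factors, had 17.4 and 6.57 CPM at D7, and no count in either D0 library, which makes it at least 16.6-fold higher at D7 from pooled counts (edgeR adjusted p = 0.015). Both D5 libraries held it too, at 20.1 and 3.09 CPM. Zfp978 had 34.2 and 11.8 CPM at D7 and 0 in both D0 libraries, and Zfp993, of the same stretch of chromosome 4, had 15.9 and 4.60 CPM at D7 and 1.96 and 2.25 CPM at D0 and was not called (edgeR adjusted p = 0.10). Of the genes left out by name, Zfp42, the pluripotency marker Rex1, had 478 and 85 expected counts at D7 and 2 and 0 at D0, and Zfp352 summed to 20 over the 10 libraries.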
